A study of Mus musculus with 9 samples.

Results

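The cytosolic ribosomal protein genes were followed across 9 poly-A RNA-seq libraries of mouse metaphase II (MII) oocytes, the ovulated eggs held in the second meiotic division. Members were the rows annotated as protein coding whose symbol begins with Rpl or Rps followed by a digit, or is Rplp0, Rplp1 or Rplp2, leaving out the Rps6k kinases. The rule found 89 of the 30153 genes, 55 named after proteins of the large subunit and 33 after proteins of the small subunit. The remaining gene, Rps19bp1, encodes a protein that binds Rps19 and is no ribosomal protein. There are 5 members with pseudogene symbols that the tables nevertheless call protein coding (Rpl10-ps3, Rpl27-ps3, Rpl36a-ps1, Rpl9-ps6 and Rps12-ps3). Rpsa and Fau also encode ribosomal proteins but fall outside the symbol rule.

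All 3 groups came from 4-week-old Sycp3CreERT2/+; Rosa26nT-nG/+ females of mixed genetic background, so the Cre driver and the reporter are shared by every library, controls included. Sycp3 is a gene of meiotic germ cells, CreERT2 is a Cre recombinase that acts in the presence of tamoxifen, and the nT-nG reporter switches nuclei from red (tdTomato) to green (GFP) fluorescence once Cre has cut it. Females received 5 IU of PMSG and, 48 h later, 5 IU of hCG, and eggs were taken from the oviduct 13 h after that, freed of cumulus cells and picked by eye into GFP High, GFP Low and RFP pools. Each group holds 3 pools, of 15 to 16 oocytes in the GFP High pools, 49 to 57 in the GFP Low pools and 87 to 100 in the RFP pools, so pool size and reporter group cannot be told apart. The labels do not say whether the pools came from separate animals, so the p-values measure the spread between pools.

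The cytosolic ribosome reads mRNA and joins amino acids into protein. Its large subunit holds the catalytic centre and a flexible stalk that recruits translation factors, and its small subunit decodes the message. A growing mouse oocyte makes and stores ribosomes and mRNA, transcription then ceases, and the MII egg holds maternal RNA that is in part translated and in part degraded. Genes for ribosomal proteins have left many processed pseudogenes, intronless copies pasted elsewhere in the genome, and the mouse holds large numbers of them.

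Many members have near-identical copies, and Rps28 shows how close these can be. Its 207-base coding sequence (chromosome 17, 33819027 to 33824562, minus strand, GRCm38) recurs without a single difference in Gm10443, a processed pseudogene on chromosome 6 (86334031 to 86334240, plus strand). In Gm10263 (chromosome 13, 73317844 to 73318143) and Gm13192 (chromosome 2, 4959545 to 4959752) it differs by 1 base, and that base is the same in both. Positions are counted from the A of the start codon; the capital marks G163A, and the stop codon is not included. The sequences were read from GENCODE M21.
Rps28 and Gm10443: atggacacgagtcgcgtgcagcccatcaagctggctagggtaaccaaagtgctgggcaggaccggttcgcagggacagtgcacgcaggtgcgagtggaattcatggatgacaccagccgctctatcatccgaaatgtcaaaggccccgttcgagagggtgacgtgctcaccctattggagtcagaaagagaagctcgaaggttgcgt
Gm10263 and Gm13192: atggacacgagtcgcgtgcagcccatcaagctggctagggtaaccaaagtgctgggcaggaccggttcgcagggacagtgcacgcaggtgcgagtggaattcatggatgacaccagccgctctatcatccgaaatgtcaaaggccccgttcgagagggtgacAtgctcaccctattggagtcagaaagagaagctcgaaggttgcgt
A read that lies inside this stretch cannot be assigned to 1 of these genes from its sequence. How reads with several matches were counted, and the read length, are not given in the sources used here.

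Such sharing is common in the family but not general. Of the 88 members with a coding sequence in GENCODE M21, 29 had every 75-base window of it in at least 1 other gene, 67 had at least 50% of their windows there, 11 had under 10% and 5 had none (among them Rps3, Rpl39l and Rpl3l). Members were therefore also summed with each gene that held at least 50% of their windows. This merging, chosen after the data were seen, gave 84 units, of which 55 took in 112 genes that are no members and 28 stayed single genes. Over all units 67.7% of the counts lay on the members themselves, and in 19 units the copies held more counts than the members.

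Library totals ran from 19381677 to 27746256 counts. All 16 oocyte markers examined, such as Zp3 and Gdf9, exceeded 3 counts in every library, and their sum lay between 12617 and 14846 CPM (counts relative to library size, scaled by TMM over the 9 libraries, as are all levels here). The 22 cumulus and granulosa markers summed to 287 to 414 CPM, most of it from Serpine2, Nr5a2 and Cyp19a1. The other 19, a split made after their values were seen, summed to 49.0, 3.94 and 9.39 CPM in GFP High 1, 2 and 3, to 52.1, 4.85 and 12.8 in the GFP Low pools and to 24.7, 75.2 and 4.97 in the RFP pools. RFP 2 was the highest and GFP High 2 the lowest, and 16 of the 22 markers, Has2, Ptx3 and Tnfaip6 among them, were at 0 in GFP High 2. Of 6 oviduct markers 1 to 4 exceeded 3 counts in a library, and Ovgp1 never did.

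Ribosomal protein genes took 0.402% to 0.580% of the counts of a library. Their summed level was 4925 ± 519 CPM in the GFP High pools, 4917 ± 252 in the GFP Low pools and 4741 ± 907 in the RFP pools (SD, n = 3). The group means lay well within the spread of the RFP pools, which ran from 4020 in RFP 3 to 5759 in RFP 2. With the copies merged in, the sums were 7503 ± 830, 7190 ± 330 and 6851 ± 1234 CPM.

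Levels of single members spread over a wide range. There were 15 members above 100 CPM on average over the 9 libraries and 27 below 10 CPM, and the means ran from 0.132 to 393 CPM. Levels were also divided by the deposited gene length. That length can be far above the coding length (2053 against 642 bases for Rpl10), so ranks per kilobase depend on it. Per kilobase, the highest level was that of Rplp1, a stalk protein of the large subunit, at 293 CPM per kb. Rpl19, a large-subunit protein, followed at 286 and Rpl32, another, at 236. Rpl36 stood at 157 and Rpl4, which lines the exit tunnel, at 155 CPM per kb, and the sixth was Rps7 of the small subunit at 102. Across the 9 libraries Rplp1 ranged from 81.6 to 226 CPM and Rpl19 from 229 to 348 CPM, and these ranges are wide against the small step between their per-length means.

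At the low end of the tested members stood Rps10 (0.226 CPM per kb), Rps19 (0.513), Rps12 (0.534), Rps2 (0.543), Rpl9-ps6 (0.721) and Rps27 (0.753). This order, too, depends on the deposited gene length. Rps2, Rps10 and Rps19 are core proteins of the small subunit. For several of these genes the counts lay mostly on copies. Rps10 held 2.05% and Rps2 4.38% of the counts of their merged units, and Rpl21, which is tested but not among the lowest, held 1.18%. Rps10-ps2, which holds 75.5% of the windows of Rps10, was counted 810, 916 and 609 times in the GFP High pools, where Rps10 itself was counted 0, 0 and 29 times. Rpl37 held 23.3% of its unit, the rest lying on Rpl37rt, a transcribed processed pseudogene.

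**Figure D1:**
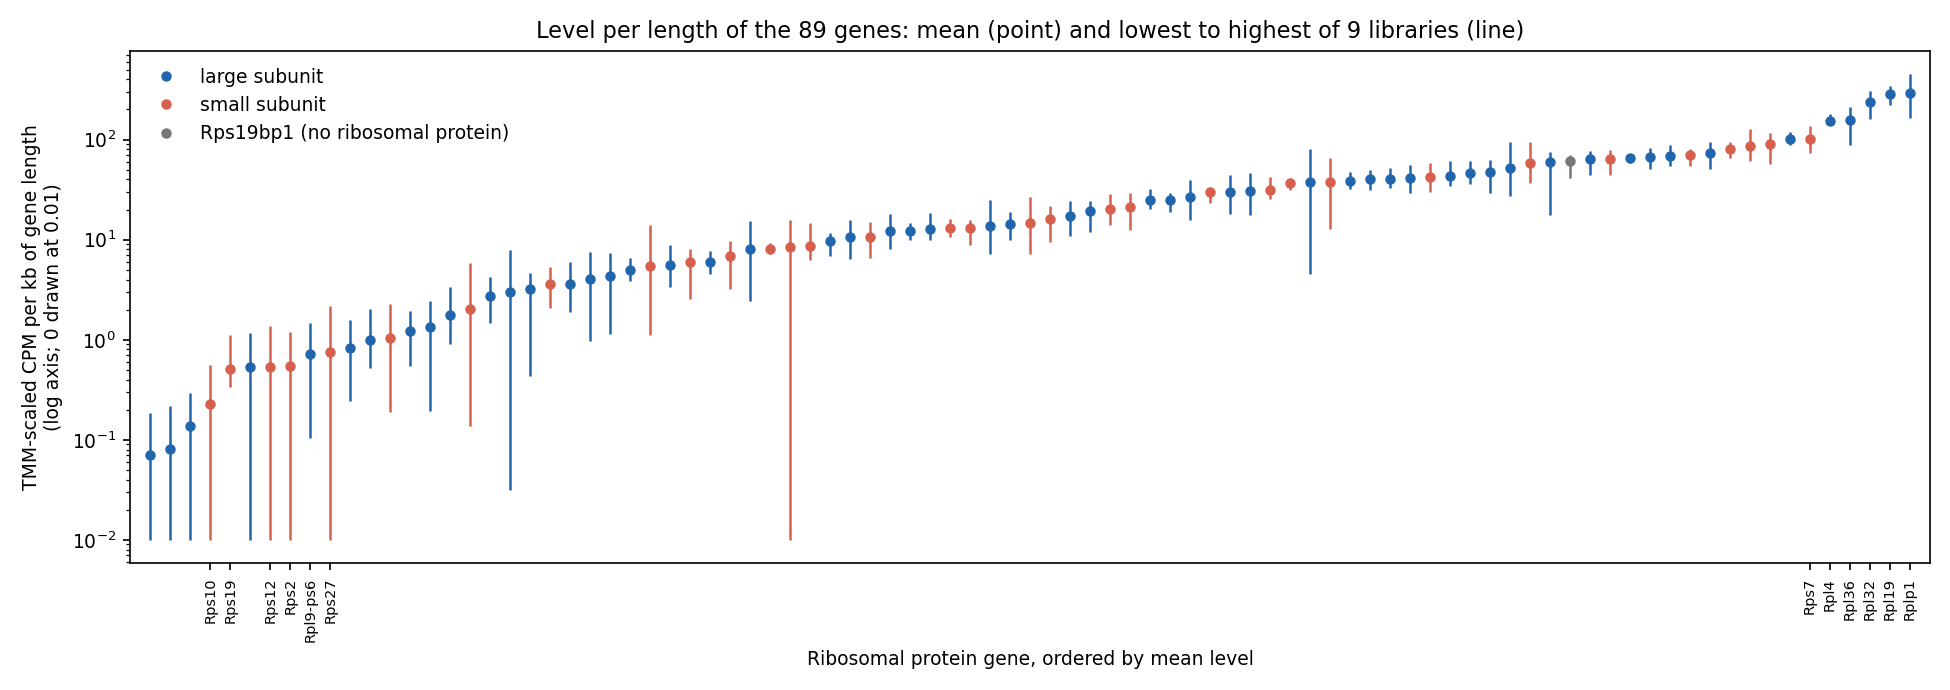
Mean level (points) and lowest to highest of 9 libraries (lines) of the 89 genes, in TMM-scaled CPM per kb of gene length on a log axis, by subunit, with the 6 highest and the 6 lowest tested members named; lines that reach 0.01 mark a library at 0. Rplp1 leads at 293 CPM per kb, and Rps10 is the lowest tested member at 0.226.

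Large and small subunit genes were set against each other as the log2 ratio of their summed CPM. The ratio was 1.09, 1.2 and 1.22 in GFP High 1, 2 and 3, 1.2, 1.13 and 1.15 in the GFP Low pools, and 1.23, 1.10 and 1.09 in the RFP pools. These groups overlapped, with means of 1.17 ± 0.07, 1.16 ± 0.04 and 1.14 ± 0.08 (SD, n = 3). The ratio also counts more large-subunit genes than small-subunit genes. Per kilobase of the deposited gene length, the median member stood at 17.1 CPM in the large subunit (quartiles 3.81 and 47.0). In the small subunit it stood at 13.2 CPM (quartiles 5.40 and 37.9), so the middle of one distribution lay within the other. With copies merged in, the ratio was 1.59, 1.75 and 1.63 in GFP High 1, 2 and 3, 1.58, 1.56 and 1.59 in the GFP Low pools, and 1.58, 1.498 and 1.54 in the RFP pools. The GFP High pools then lay above all RFP pools, by 0.0049 at the closest, while GFP Low overlapped with both other groups. The group means became 1.66 ± 0.08, 1.57 ± 0.02 and 1.54 ± 0.04 (SD, n = 3).

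GFP High was compared with RFP to ask whether eggs with the strongest GFP signal differ from those in which the reporter stayed red. None of the 84 members tested passed an adjusted p of 0.05 in edgeR's quasi-likelihood test, against a background of 0.0135% of the 14829 genes tested. DESeq2 also called none of the members, where its background was 0.0437% of genes. At an unadjusted p under 0.05 there was 1 member, Rps23, against a background of 4.09% of all genes. Fold changes were split evenly, with 42 members higher and 42 lower, and their median was -0.0027 on the log2 scale beside -0.0056 for all genes tested. The large-subunit median was 0.025 and the small-subunit median -0.017. With copies merged in the split was uneven, with 55 units higher and 27 lower and a median of 0.086. These units also hold genes that are no members. The 66 tested pseudogenes named after a ribosomal protein had a median of 0.17, with 40 higher and 26 lower. None of the 82 units passed (background 0.0136%), and 4 had an unadjusted p under 0.05 (background 4.04%), Rps23 lower and Rpl21 (0.41), Rps10 (0.61) and Rpl23a (0.32) higher in the GFP High pools.

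Rps23, a small-subunit protein near the decoding centre (chromosome 13, 90922958 to 90924950, plus strand, GRCm38), was measured at 12.1, 15.5 and 9.03 CPM in GFP High 1, 2 and 3, at 15.8, 21.8 and 16.9 in the GFP Low pools and at 21.2, 33.5 and 20.7 in the RFP pools. The GFP High pools lay below all pools of the other groups. The log2 fold change against RFP was -1.04 (SE 0.28, n = 3 against 3; edgeR adjusted p = 0.997), and the difference did not pass the adjusted threshold. Its coding sequence also lies in Gm5148 and C330021F23Rik, each counted at most 7 times in a library, and the merged value was -1.04 as well. Rps19, of the small subunit, was the other member whose groups did not overlap, at 1.75, 1.83 and 1.75 CPM in the GFP High pools and 2.79, 5.18 and 2.00 in the RFP pools. These 2 of 84, both lower in the GFP High pools, compare with 11.9% of all genes tested, 4.88% higher and 6.98% lower.

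The next members by p were all higher in the GFP High pools. Rpl32 was measured at 235, 296 and 217 CPM in the GFP High pools and at 208, 234 and 156 in the RFP pools, a log2 fold change of 0.33 (SE 0.17). Rplp1 was measured at 203, 226 and 105 CPM in the GFP High pools and at 81.6, 178 and 84.03 in the RFP pools, a log2 fold change of 0.64 (SE 0.34). Both genes overlapped between the groups, and edgeR's adjusted p was 0.997 for each. Rpl23a, a large-subunit protein near the exit of the tunnel, had a log2 fold change of 0.32 (SE 0.16). Rps18, in the head of the small subunit, had one of 0.57 (SE 0.33). With copies merged in, Rpl23a was still at 0.32 (SE 0.14) but Rps18 was at 0.10 (SE 0.23). Without RFP 2 the value for Rplp1 was 1.11 and that for Rps18 0.96, and without RFP 3 those for Rps18, Rpl32 and Rpl23a were 0.37, 0.17 and 0.21. Rpl32 was at 0.18 without GFP High 2. With no filter on low counts Rplp1 passed, at an adjusted p of 0.00438 and a log2 fold change of 0.63, where the background was 0.0583% of genes.

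GFP Low was compared with RFP in the same way, and here 1 of 85 members passed, Rps28, against a background of 0.0197% of the 15199 genes tested. It was lower in the GFP Low pools. At an unadjusted p under 0.05 there were 7 members, 3 higher (Rpl27a, Rps4x and Rpl19) and 4 lower (Rps28, Rps13, Rpl7a and Rps23), which is 7 of 85 beside 2.62% of all genes. The median member stood at 0.031 on the log2 scale, with 47 members higher and 38 lower, and the median of all genes was -0.0041. Groups did not overlap for 2 of 85 members, Rpl7a and Rps28, both lower in the GFP Low pools, beside 7.68% of all genes, 3.59% higher and 4.09% lower. DESeq2 likewise called 1 member, Rps28, where its background was 0.034% of genes.

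Rps28, a small protein of the small subunit, was counted 49, 65 and 65 times in GFP Low 1, 2 and 3 and 202, 430 and 339 times in the RFP pools. In GFP High 1, 2 and 3 the counts were 566, 60 and 36. As CPM these are 2.53, 2.48 and 2.34 in the GFP Low pools, 7.62, 18.9 and 12.6 in the RFP pools, and 20.7, 2.44 and 1.62 in the GFP High pools. The log2 fold change of GFP Low against RFP was -2.41 (SE 0.31, n = 3 against 3; edgeR adjusted p = 0.0214). With a library left out, the call held only without RFP 1, and the adjusted p lay between 0.0518 and 0.189 without any of the other 5, while the fold change stayed between -2.68 and -2.04. In 1 fit of all 9 libraries its adjusted p was 1.00. GFP High held both the highest and the lowest pool of all, so its fold change against GFP Low, 1.75 (SE 0.84, edgeR adjusted p = 0.998), turned to -0.28 without GFP High 1.

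The copy with the same coding sequence stood the other way round. Gm10443 was counted 429, 518 and 568 times in the GFP Low pools, 228, 189 and 40 times in the RFP pools and 316, 356 and 306 times in the GFP High pools. GFP Low lay above all other pools, and the log2 fold change of GFP Low against RFP was 1.77 (SE 0.43; edgeR adjusted p = 1.00). Gm10263 stood at 1.404 (SE 0.52) and Gm13192 at 0.15 (SE 0.36) in the same comparison, neither past the adjusted threshold. Summed with its 3 copies, Rps28 reached 32.2, 29.9 and 27.4 CPM in the GFP Low pools, 21.8, 32.0 and 16.8 in the RFP pools and 37.1, 20.98 and 19.6 in the GFP High pools. In the sum the groups overlapped and the log2 fold change of GFP Low against RFP was 0.34 (SE 0.20; edgeR adjusted p = 1.00). None of the 82 units passed in this comparison once copies were merged in (background 0.0132%), and 2 had an unadjusted p under 0.05 (background 2.58%), Rps4x and Rps23. The merged split was 51 higher and 31 lower, with a median of 0.050.

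**Figure D2:**
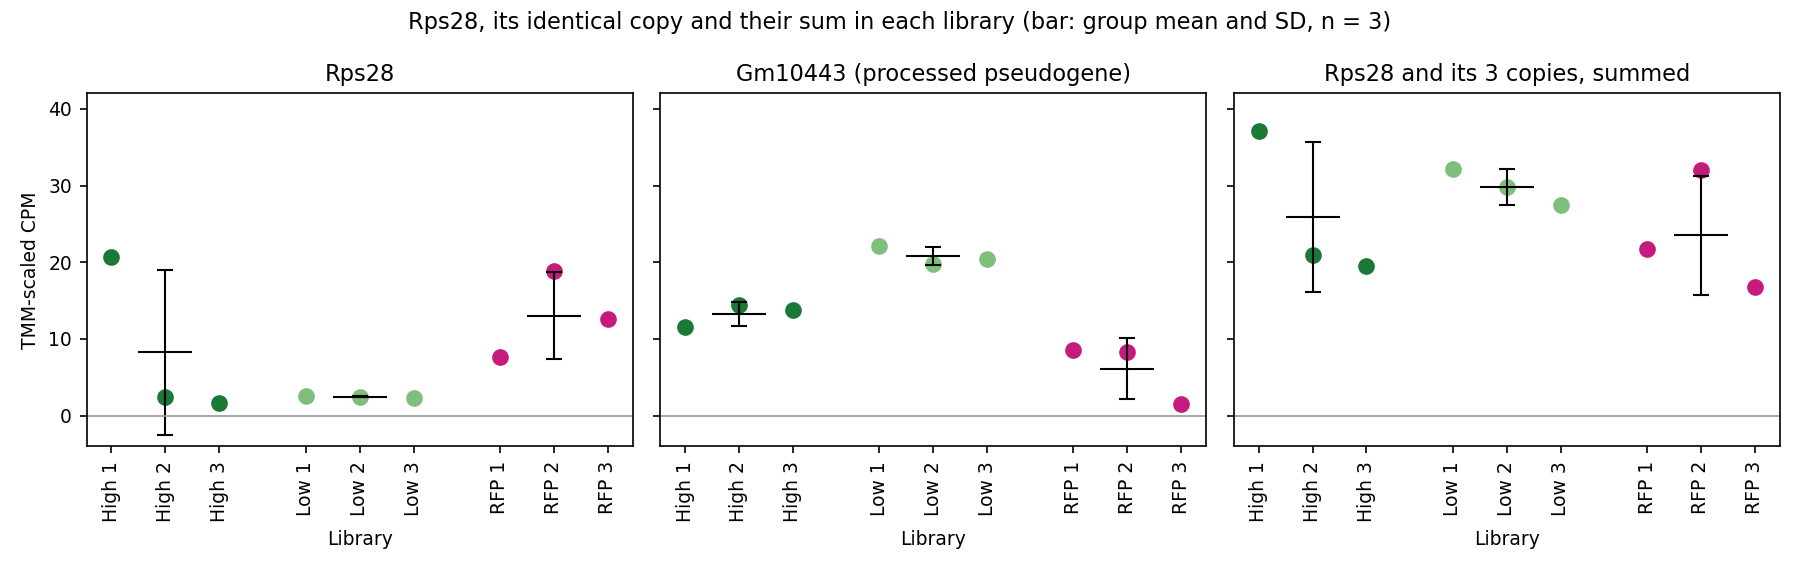
Level of Rps28, of the pseudogene Gm10443 with the same coding sequence, and of Rps28 summed with its 3 copies in the 9 libraries, in TMM-scaled CPM (points), with group mean and SD (bars, n = 3). Rps28 was 2.34 to 2.53 CPM in the GFP Low pools, where Gm10443 was at its highest, and the sum overlapped between groups.

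Rps13, which sits in the body of the small subunit, was measured at 2.42, 1.57 and 4.11 CPM in the GFP Low pools, at 8.12, 15.8 and 2.82 in the RFP pools and at 10.3, 0.366 and 3.33 in the GFP High pools. Its log2 fold change of GFP Low against RFP was -1.71 (SE 0.52; edgeR adjusted p = 1.00), and -0.81 (SE 0.38) with its 2 copies merged in. Rpl7a, of the large subunit, was measured at 7.17, 5.99 and 1.73 CPM in the GFP Low pools and at 8.002, 10.5 and 13.5 in the RFP pools, a log2 fold change of -1.12 (SE 0.40). Summed with 3 pseudogenes it stood at -0.21 (SE 0.12). Without RFP 2 Rps13 was at -1.01, and without GFP Low 3 Rpl7a was at -0.70. Rps13 and Rpl7a passed only with no filter on low counts, at adjusted p of 4.49e-05 and 0.0171, where the background was 0.116% of genes. Rpl27a, a large-subunit protein, stood at 0.58 (SE 0.24), with GFP Low 3, at 43.0 CPM, above the other 8 libraries. The value for Rpl27a was 0.20 without that pool and 0.11 (SE 0.17) with its copy merged in. Rps23 stood at -0.47 (SE 0.20), and at -0.20 without RFP 2.

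GFP High was compared with GFP Low, and none of 85 members passed, nor did any of the 14785 genes tested (background 0%). DESeq2 called no member (background 0.0147% of genes), and neither did edgeR with no filter on low counts (background 0.0587%). At an unadjusted p under 0.05 there were 3 members (background 3.77%), Rps18 and Rpl23a higher and Rpl19 lower in the GFP High pools. The median was 0.018, with 46 members higher and 39 lower, beside -0.0048 for all genes. With copies merged in the split was 52 units higher and 30 lower, with a median of 0.057. None of the 82 units passed (background 0%), and 4 had an unadjusted p under 0.05 (background 3.74%). Groups did not overlap for 5 of 85 members, beside 11.5% of all genes, 4.71% higher and 6.84% lower. Rpl23a, Rpl36a, Rpl4 and Rps18 were the 4 higher in the GFP High pools, and Rps23 the 1 lower.

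Rps18 was measured at 10.8, 12.4 and 13.2 CPM in the GFP High pools and at 8.45, 6.11 and 5.12 in the GFP Low pools, which is 0.89 on the log2 scale (SE 0.30) with an adjusted p of 0.998 in edgeR's test. RFP spanned both groups, at 6.72, 12.02 and 5.79 CPM. With its copies merged in, the value for Rps18 was 0.06. Rpl23a was measured at 68.3, 75.1 and 58.3 CPM in the GFP High pools and at 54.9, 53.6 and 53.7 in the GFP Low pools, 0.32 (SE 0.14), and was at 0.28 with copies. Rpl19 was measured at 229, 237 and 320 CPM in the GFP High pools and at 311, 328 and 348 in the GFP Low pools, -0.33 (SE 0.13), with a value of -0.50 without GFP High 3 and 0.03 with its copy merged in. Rps23 had a log2 fold change of -0.57 (SE 0.27), and -0.58 when merged.

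**Figure D3:**
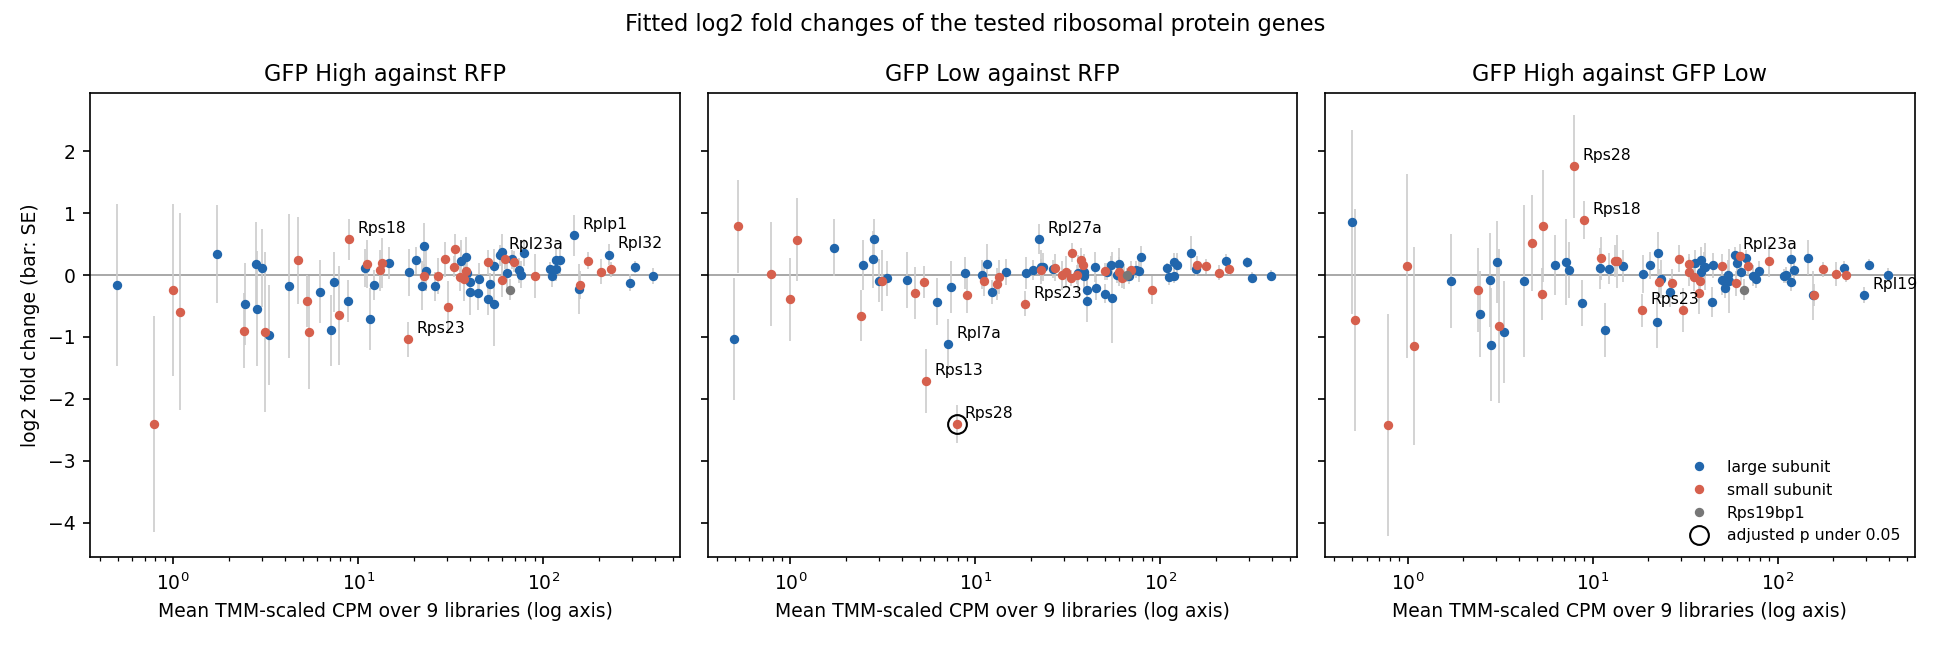
Fitted log2 fold change and SE (bars) of each tested member against its mean TMM-scaled CPM over the 9 libraries (log axis), in the 3 comparisons; the 5 members with the smallest p are named. Only Rps28 in GFP Low against RFP, at -2.41, is ringed for an adjusted p under 0.05, and members below 10 CPM spread widest.

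Counts were simulated with the spread of these libraries, and many genes, none of them with low counts, were changed at once. The test recovered 49% of genes changed 2-fold in GFP High against RFP and 73% in GFP Low against RFP. In GFP High against GFP Low it recovered 44%. For genes changed 4-fold the shares were 77%, 91% and 80% in these comparisons. A change of 2-fold in a single member could thus have been missed in each comparison. Many changed genes together ease the adjusted threshold, so the shares are too high for a member that changes alone. They do not cover members with low counts. The authors' deposited tables give an adjusted p under 0.05 for 0, 1 and 0 members in the same order, the 1 being Rps28 at 1.40e-09.

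The spread of single members between pools of 1 group was often wide. For 29 of the 84 members tested in all comparisons, the highest and the lowest of the 9 libraries belonged to the same group. The median ratio of highest to lowest library was 2.19, and 1.77 for the units with copies merged in; a sum rests on more counts than its parts. The median coefficient of variation between replicates was 26.9% for members and 27.4% for all genes tested in the GFP High pools, 16.6% and 14.3% in the GFP Low pools, and 24.96% and 14.4% in the RFP pools. In RFP the members thus varied more than the typical gene.

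The 6 members with the largest spread of log2 CPM over the libraries were Rpl37a, Rps27rt, Rps12, Rps27, Rps13 and Rps28. All have at least 62.9% of their windows in another gene, but 67 of the 88 members with a coding sequence have at least 50% there. Rpl10l, with 0.53% of its windows shared, also spread widely, with a ratio of highest to lowest library of 10.6. Rpl37a, a zinc-finger protein of the large subunit, was counted 303, 19 and 1 times in the GFP High pools, 86, 36 and 193 times in the GFP Low pools and 127, 119 and 94 times in the RFP pools. Its pseudogene Gm4149 was counted 74, 75 and 189 times in the GFP High pools, and was thus highest where Rpl37a was at 1. Rps27 and Rps27rt, both annotated as protein coding, hold the same windows throughout, and both were at 0 counts in GFP High 2, beside 146 and 15 counts of Rps27rt in GFP High 1 and 3. Rps12 was counted 55, 1 and 0 times in the GFP High pools, while Rps12-ps3, with the same windows, was counted 109, 149 and 72 times.

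Rpl26, a large-subunit protein beside the tunnel exit (chromosome 11, 68901583 to 68906989), ranged from 176 counts in RFP 3 to 2646 in RFP 2, and Gm15772, its pseudogene on chromosome 5 (3236431 to 3236868), was counted 5716 and 4183 times in those libraries. The ratio of highest to lowest library was 17.8 for Rpl26 alone and 1.51 for both summed. For Rps28 the ratio was 12.8 alone and 2.21 with copies, for Rps13 43.0 and 4.09, for Rpl7a 7.83 and 1.56, and for Rpl13 4.34 and 1.45. Rpl13 was counted 1116 times in GFP High 2 and 2941 to 5391 times elsewhere, and its 3 pseudogenes each had their highest CPM in GFP High 2. The ratio hardly differed for Rps23, at 3.71 either way, or for Rpl37, at 1.87 alone and 1.71 with Rpl37rt. Rps23 held 99.7% of the counts of its unit, so its ratio could hardly change. Rpl26 and Rpl7a held 20.9% and 20.8%, so their summed ratios rest mostly on the copies.

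**Figure D4:**
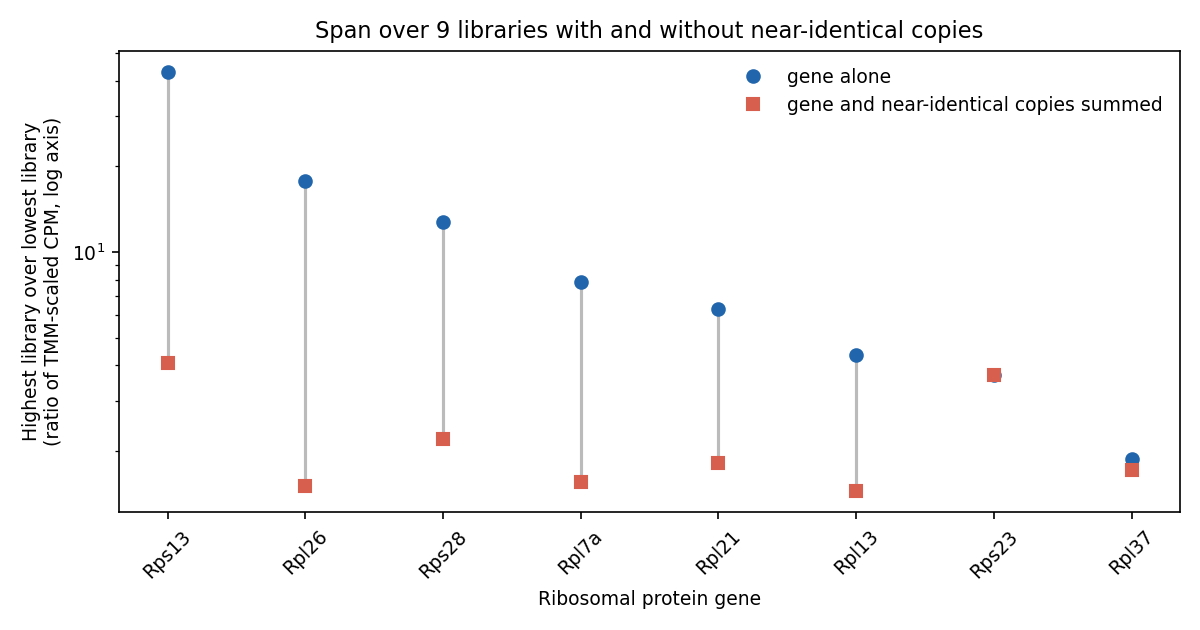
Ratio of the highest to the lowest of 9 libraries in TMM-scaled CPM (log axis) for 8 genes, alone (circles) and summed with near-identical copies (squares). The genes were picked, several after their values were seen, and had over 3 counts in every library. Rpl26 went from 17.8 to 1.51. Rps23, which held 99.7% of the counts of its unit, was at 3.71 in both. The median ratio was 2.19 over the 84 members tested in all comparisons and 1.77 with copies merged in.

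By the share of windows found in other genes, the median SD of log2 CPM over the libraries was 0.279 for the 10 tested members with under 10% shared, 0.376 for the 39 between 10% and 90%, and 0.393 for the 34 at or above 90%, beside 0.336 for all 14221 genes tested in all comparisons. The median coefficient of variation between replicates rose in the same order in the GFP High and GFP Low pools. In the RFP pools it did not, at 20.3%, 30.2% and 20.8%. In the 10 members with few shared windows, none passed in any comparison and the median log2 fold changes were 0.022, -0.016 and 0.056. These values are descriptions, since the members also differ in level.

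Members stood high or low together in single libraries. The median deviation from each gene's own mean was 0.24, 0.03 and -0.10 (log2 CPM) in GFP High 1, 2 and 3, 0.08, -0.11 and 0.11 in the GFP Low pools, and -0.06, 0.35 and -0.25 in the RFP pools, while all genes tested stayed between -0.04 and 0.04. RFP 2 was the highest library for 27 of 84 members and RFP 3 the lowest for 23. Extremes also lay in the GFP High pools. GFP High 1 was the highest for 22 and GFP High 3 the lowest for 21. GFP High 2 was the highest for 15 but also the lowest for 20. The pattern in RFP 2 and RFP 3 was wider in members with short coding sequences. For the 29 of at most 396 bases the median was 0.47 in RFP 2 and -0.29 in RFP 3. For the 28 of at least 576 bases it was 0.19 and -0.10. This pattern was also present with copies merged in (0.26 in RFP 2 and -0.31 in RFP 3).

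Other values were also high or low in these libraries. Other protein-coding genes were ordered by deposited gene length, not by coding bases. The 1284 shortest had medians of 0.10 in RFP 2 and -0.12 in RFP 3, and the 1284 longest had 0.00 and 0.12. In GFP High 2 the shortest stood at 0.09 and the longest at -0.16, where the member median was 0.03. The 19 cumulus and granulosa markers given above were highest in RFP 2, at 75.2 CPM, and at 4.97 CPM in RFP 3, and GFP High 1 stood high in both, but GFP Low 1, at 52.1 CPM, had a member median of 0.08. Their part in the result was not tested. Without RFP 2 the member median became 0.20 in both comparisons with RFP. Without GFP High 1 it became -0.10 against RFP and -0.15 against GFP Low.

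**Figure D5:**
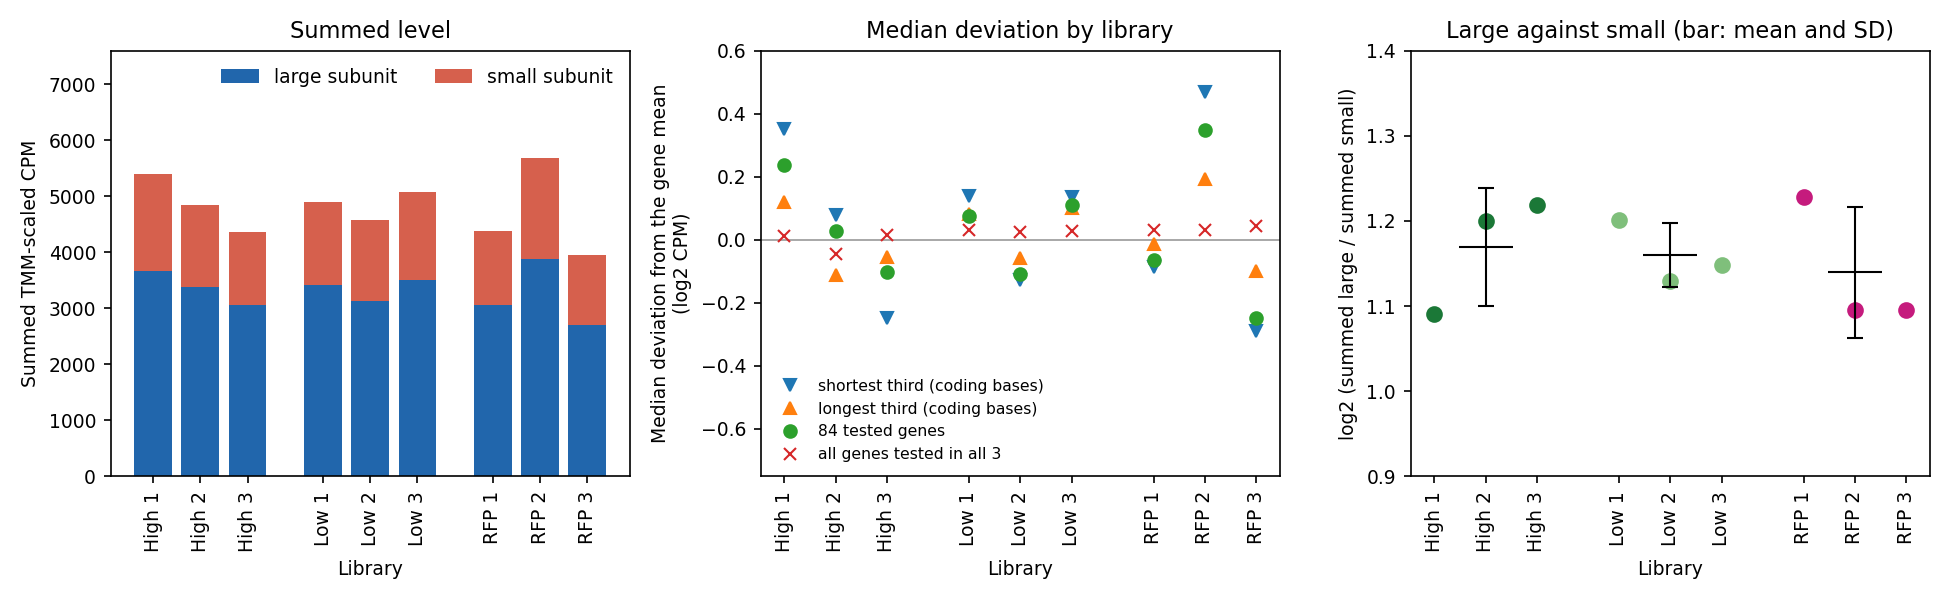
Summed TMM-scaled CPM of large- and small-subunit genes (stacked bars), median deviation of log2 CPM from each gene's mean for members, those of at most 396 and of at least 576 coding bases, and all genes (symbols), and log2 ratio of summed large to small subunit (points; bars, mean and SD, n = 3; axis from 0.9 to 1.4) by library. RFP 2 and RFP 3 lie at opposite ends of the summed level, 5759 and 4020 CPM, within 1 group.

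The stalk of the large subunit is built on Rplp0, which anchors Rplp1 and Rplp2, with Rpl12 at its base. Rplp0 was the steadiest, at 97.5 to 120 CPM over the 9 libraries, and Rplp2 ranged from 38.8 to 61.3 and Rpl12 from 28.9 to 64.7 CPM. The log2 fold changes of GFP High against RFP were 0.09 (SE 0.12) for Rplp0, -0.15 (SE 0.19) for Rplp2 and -0.30 (SE 0.27) for Rpl12, while Rplp1, given above, was at 0.64, and none of the 4 passed. Rpl5 and Rpl11, which bind the 5S rRNA and, when free, the p53 regulator Mdm2, ranged from 346 to 463 and from 93.6 to 166 CPM. Their log2 fold changes in GFP Low against RFP were both -0.02 (SE 0.09 and 0.11). Rps19bp1 ranged from 45.3 to 76.1 CPM, lowest in GFP High 2, and no comparison called it.

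Several members have a paralogue with its own gene. Rpl39l, known for its high level in the male germline, differs from Rpl39 at 23 of 153 coding bases (85.0% identity). No 75-base window of its coding sequence lies in another gene, so reads of that length there can be told from Rpl39. The rest of the gene was not searched. The capitals below mark the differing bases, read from GENCODE M21 without the stop codon.
Rpl39: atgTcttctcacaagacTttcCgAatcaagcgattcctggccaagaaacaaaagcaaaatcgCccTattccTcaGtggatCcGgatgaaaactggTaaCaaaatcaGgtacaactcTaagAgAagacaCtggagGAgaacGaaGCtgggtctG
Rpl39l: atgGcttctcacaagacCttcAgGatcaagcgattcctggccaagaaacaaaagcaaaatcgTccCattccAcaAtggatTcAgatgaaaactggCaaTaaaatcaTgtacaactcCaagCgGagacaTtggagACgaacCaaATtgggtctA
Rpl39 (chromosome X, 37082520 to 37085402) was measured at 49.3, 44.5 and 36.2 CPM in the GFP High pools, 46.1, 29.6 and 34.1 in the GFP Low pools and 27.4, 56.2 and 22.4 in the RFP pools. Rpl39l (chromosome 16, 10170226 to 10174911) was measured at 26.6, 21.6 and 18.9, at 20.4, 17.3 and 22.6, and at 17.5, 22.6 and 17.0 CPM in the same groups. In CPM Rpl39 stood above Rpl39l in every library. Per kilobase both stood close, at 26.8 and 24.7 CPM. That closeness rests on the deposited gene lengths, since both coding sequences have 153 bases. In both genes the 3 groups overlapped.

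The other pairs differed in their balance. Rpl7l1 (12.8 CPM per kb) and Rpl7 (9.71) lay near each other, and Rps27l (16.1) and Rps27rt (8.37) both lay above Rps27 itself at 0.753. Rpl22 stood at 38.2 CPM per kb and Rpl22l1 at 1.23, Rpl10 at 19.5 and the testis-enriched Rpl10l at 3.24, and Rpl3 at 2.77 and the muscle paralogue Rpl3l at 0.08. Rpl36a stood at 40.9 and Rpl36al at 0.14 CPM per kb. These levels count each gene alone. Over all libraries Rpl36al held 41 counts beside 302 on its merged copy, and Rpl3 held 1950 beside 2927. In Rpl36a and Rpl22l1 most counts lay on the gene, at 15120 beside 3959 and 567 beside 62. Rpl7, Rpl7l1, Rpl22, Rpl10l, Rpl3l and Rps27l had no merged copy. How far the balance of Rpl3 and Rpl36al depends on read assignment was not tested. Rpl3l and Rpl36al were not tested, being too low, as were Rpl9 and Rpl36a-ps1, and Rps10 was left out of GFP High against RFP alone. Rps4l, which the tables call a transcribed processed pseudogene, stood at 52.0 CPM per kb beside 20.4 for Rps4x, on the X chromosome. Rps4x was measured at 24.6, 46.5 and 39.0 CPM in the GFP High pools, 41.4, 30.1 and 34.6 in the GFP Low pools and 22.8, 31.5 and 28.2 in the RFP pools, and was not called. None of the 7 paralogues tested passed in any comparison.

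Rpsa and Fau, ribosomal protein genes with other symbols, did not pass either. Fau, a fusion of a ubiquitin-like protein with Rps30, had a log2 fold change of 0.17 (SE 0.16) in GFP High against RFP, and Rpsa, of the small subunit, one of 0.02 (SE 0.53).

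Genes that build or regulate ribosomes were read from fixed lists. None of 55 ribosome biogenesis genes passed in any comparison, and the medians were -0.012, 0.021 and -0.024. Nhp2, of the particles that pseudouridylate rRNA, had the smallest p of the list when GFP High was set against RFP, with a fold change of 0.56 on the log2 scale (SE 0.17) and an adjusted p of 0.997 in edgeR's test, followed by Nol6 at 0.37 (SE 0.15). In GFP Low against RFP Polr1c, shared by RNA polymerases I and III, stood at -0.92 (SE 0.33) and Eif6, which keeps the subunits apart, at 0.16 (SE 0.07). In GFP High against GFP Low Nhp2 stood at 0.38 (SE 0.15) and Polr1a, the largest subunit of RNA polymerase I, at -0.31 (SE 0.13). None of 5 chaperones of ribosomal proteins and none of 11 regulators of their translation passed. Among these, Pdcd2l and Heatr3 stood at 0.31 (SE 0.27) and -0.30 (SE 0.42) and Rps6kb1 and Larp4 at -0.19 (SE 0.15) and 0.10 (SE 0.09) in GFP High against RFP. In GFP Low against RFP Grwd1 stood at 0.21 (SE 0.19), Tsr2 at 0.57 (SE 0.59), Eif4ebp1, a repressor of cap-dependent translation, at -0.99 (SE 0.48) and Larp4 at 0.08 (SE 0.07). In GFP High against GFP Low Pdcd2l stood at 0.28 (SE 0.27), Grwd1 at -0.40 (SE 0.40), Rps6kb1 at -0.25 (SE 0.15) and Mtor at -0.15 (SE 0.13).

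Mitochondrial ribosomal protein genes, which serve the separate ribosome of that organelle, gave the closest comparison. None of the 76 tested in GFP High against RFP or of the 77 in each other comparison passed, and their medians were 0.11, 0.05 and 0.07, beside -0.003, 0.03 and 0.02 for the cytosolic members. With copies merged in, the cytosolic medians were 0.086, 0.050 and 0.057, close to the mitochondrial ones. Mrpl2 stood at 0.44 (SE 0.15) and Mrps25 at 0.30 (SE 0.10) in GFP High against RFP, Mrpl20 at 0.83 (SE 0.31) and Mrps26 at 0.40 (SE 0.19) in GFP Low against RFP, and Mrpl2 at 0.41 (SE 0.15) and Mrps18b at 0.49 (SE 0.23) in GFP High against GFP Low. By library their median deviation was 0.06 in RFP 2 and -0.15 in RFP 3, beside 0.35 and -0.25 for the cytosolic members. In GFP High 1 and GFP High 3 it was 0.20 and -0.15, beside 0.24 and -0.10. Whether the 2 families differ was not tested. The 2 comparisons that involve RFP share its 3 pools, and each pair of comparisons shares a group.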

How the data were processed

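The authors deposited 3 tables, 1 per pair of groups, with raw counts per gene, a normalised signal, FPKM, and the log2 fold change and p-value of their own comparison. Per the submitters' processing notes, mm10, fastp, HISAT2 2.0.5, featureCounts 1.5.0-p3 and DESeq2 1.20.0 were used; their settings are not given in the sources used here. The deposited normalised signal and FPKM entered no test, and the authors' log2 fold changes and p-values are quoted only by name. Counts were joined by gene identifier into 30153 genes by 9 libraries (178 genes lacking in a table were filled with 0), and 0 columns were left unmapped. Each comparison was fitted on its 6 libraries with edgeR 4.0.16 in R 4.3.3 (filterByExpr, TMM, glmQLFit, glmQLFTest, no covariate), with Benjamini-Hochberg adjustment over all genes tested and a threshold of 0.05. SEs were derived from the F statistic. Levels are TMM-scaled CPM over the 9 libraries; deviations use log2(CPM + 0.1). Counts carry no molecular identifiers, and 3 counts was taken as the limit of detection. The script was tested on simulated data.

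Genes named were those past the threshold, the 5 smallest p per comparison, the 6 highest and 6 lowest tested per length, the 6 most variable, the paralogue pairs, stalk and 5S genes, and the 2 smallest p per list; others, such as Rpl26, Rpl13, Rpl21 and Rps3, were chosen after their values were seen. Members and lists were chosen with earlier results of these data known. Some genes of these lists are not reported here by name. Of 8 blood cell markers only Ptprc was analysed here, at no more than 0.449 CPM. Same-numbered pools correlated between -0.113 and 0.116, and were not treated as pairs. Alternatives were DESeq2 1.42.0, its size factors, no filter, one fit of 9 libraries, a replicate block, leaving out each library, other member sets and merging with copies.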

Additional observations from a re-analysis of the deposited data

How the results depend on the processing

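With 3 pools a group, single members rest on little replication, and counts shared among copies limit what any single gene shows. Of 90 values of single members under alternatives that keep all libraries, 83 kept direction and side of the threshold, but 9 moved by over 1.5 times, 8 of them by merging with copies. With a library left out these numbers were 84 and 12 of 90. With no filter on low counts 1 member (Rplp1) passed in GFP High against RFP and 3 (Rps28, Rps13 and Rpl7a) in GFP Low against RFP. In 1 fit of all 9 libraries 0 passed in GFP Low against RFP, where Rps28 stood at -2.41 with an adjusted p of 1.00, and with copies merged in 0 passed. Merging turned Rps28 to 0.34 in GFP Low against RFP and to -0.20 in GFP High against GFP Low, and Rpl19 to 0.026 in the latter.

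With a library left out, GFP Low against RFP gave 0 to 1 members: Rps28 ranged from -2.68 to -2.04 and passed only without RFP 1, its adjusted p without GFP Low 1, 2 or 3 being 0.186, 0.174 and 0.189, and without RFP 2 or 3 0.0815 and 0.0518. GFP High against RFP and GFP High against GFP Low gave 0 throughout. The median fold change ranged from -0.12 to 0.20, -0.09 to 0.20 and -0.15 to 0.13 in the 3 comparisons, and Rps28 in GFP High against GFP Low from -0.28 to 2.24. The log2 ratio of large to small subunit ranged from 1.14 to 1.21 in GFP High, 1.14 to 1.17 in GFP Low and 1.10 to 1.16 in RFP, and became 1.03, 1.03 and 1.02 with ribosomal protein genes of other symbols added and 1.66, 1.57 and 1.54 with copies. Merging raised the summed level to 7503, 7190 and 6851 CPM; without copies, and with a library left out, it ranged from 4657 to 5175, 4805 to 5054 and 4231 to 5101 CPM. The causes of these changes were not tested. The replicate block gave 0, 1 and 0 members and medians of -0.0033, 0.051 and -0.011, with no call changed.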
